A study of Mus musculus with 18 samples.

Results

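Axon guidance ligands and receptors are secreted, membrane-anchored or transmembrane proteins that tell a growing axon or a migrating cell to advance, turn or withdraw. Semaphorins signal through plexins, the secreted class 3 members usually with a neuropilin as co-receptor. Ephrins bind Eph receptor tyrosine kinases on neighbouring cells, Slits bind Robo receptors, repulsive guidance molecules (RGMs) bind neogenin (Neo1), and netrins bind Dcc and the Unc5 receptors. Best known from the developing nervous system, these families also act on cell sorting and tissue boundaries in the early embryo, and RGMs are co-receptors for bone morphogenetic proteins.

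The genes described here were taken by family symbol: semaphorins, plexins, neuropilins, EphA and EphB receptors, ephrins, Slits, Robos, Rgma, Rgmb, Neo1, the Unc5 family and Dcc. Of 68 annotated mouse genes with such symbols, 50 had a row in at least 1 of the 2 deposited count tables, which together listed 14411 genes. The table of embryonic stem cells (ESCs) held 46 of them among 13104 genes, and the table of epiblast-like cells (EpiLCs) held all 50 among 13717 genes. The genes Epha8, Epha10, Sema6a and Unc5a were listed for EpiLCs and not for ESCs. The netrin receptor Dcc, the neuropilin Nrp1, Robo2, Robo3, Robo4, Slit1, Unc5c, Unc5d and 10 more had no row in either table, and the authors had removed genes with low counts, so no level is given for them.

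The study asked how Δ9-tetrahydrocannabinol (Δ9-THC), the main psychoactive compound of cannabis, alters early mouse embryonic cells. Its ESCs carried the germline reporters Blimp1::mVenus and Stella::ECFP and were kept naive with inhibitors and LIF. They were turned into EpiLCs, a model of the epiblast after implantation, with activin A, bFGF and knockout serum replacement on fibronectin. Each cell type received 100 nM Δ9-THC or ethanol vehicle (mock), with exposure continuing from ESCs into EpiLCs, in 3 biological replicates for each of 4 groups, hence 12 poly(A) RNA-seq libraries. All groups descend from reporter ESCs. In its section on viability and proliferation, the study describes the data as coming from female ESCs, with a check in male ESCs. It does not name the clone beside the RNA-seq. The labels do not say whether the replicates were separate thaws or derivations. The p-values measure only the spread left between these libraries after the authors' batch adjustment.

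The libraries held 23427551 to 32096698 adjusted counts. Naive pluripotency genes matched the labels: all 12 of a fixed list had a row in both tables, and their summed level was 5029 to 5426 CPM (counts scaled by library size) in vehicle ESCs against 539.5 to 574.9 CPM in vehicle EpiLCs. The primed epiblast list summed to 171.8 to 188.1 CPM in vehicle ESCs and to 1945 to 2319 CPM in vehicle EpiLCs. Vehicle and Δ9-THC libraries of the same replicate number deviated from their group means in nearly opposite ways across all genes (r = -0.977 to -0.987 in ESCs and -0.979 to -0.985 in EpiLCs). The batch-adjusted libraries were therefore not independent of each other. Tests that treat them as independent, the main one included, can give p-values that are too small, and are to be read with that limit. In ESCs, pairs of libraries within a group differed by a chi-square of 4.60 to 7.49 per gene, and pairs across groups by 31.3 to 58.5. In EpiLCs the within-group pairs differed by 38.5 to 92.1 and the across-group pairs by 20.6 to 117.4, with Δ9-THC replicate 3 and vehicle replicate 3 the farthest apart and vehicle replicate 3 and Δ9-THC replicate 1 the nearest.

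RefSeq promoter windows (GRCm38.p6, 250 bases before to 50 after the start site) are shown for 4 genes on which the results below turn. Slit2 showed the widest drop between cell types, Slit3 and Epha1 had the lowest Δ9-THC to vehicle ratios in ESCs, and Sema6b had a Δ9-THC to vehicle ratio above 1 in ESCs and the lowest ratio of all members in EpiLCs, with no call in either. They lie at chr5:47982905-47983204 (plus strand), chr11:35121206-35121505 (plus strand), chr6:42373219-42373518 (minus strand) and chr17:56140294-56140593 (minus strand). Capitals mark GGGCGG on either strand, the GC box to which Sp1-type factors bind.
Slit2: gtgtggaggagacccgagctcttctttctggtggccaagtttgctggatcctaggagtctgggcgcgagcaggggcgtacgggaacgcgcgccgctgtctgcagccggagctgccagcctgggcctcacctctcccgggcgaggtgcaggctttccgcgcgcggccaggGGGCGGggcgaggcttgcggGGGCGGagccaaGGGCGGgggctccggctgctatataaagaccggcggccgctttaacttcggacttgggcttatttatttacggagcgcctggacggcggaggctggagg
Slit3: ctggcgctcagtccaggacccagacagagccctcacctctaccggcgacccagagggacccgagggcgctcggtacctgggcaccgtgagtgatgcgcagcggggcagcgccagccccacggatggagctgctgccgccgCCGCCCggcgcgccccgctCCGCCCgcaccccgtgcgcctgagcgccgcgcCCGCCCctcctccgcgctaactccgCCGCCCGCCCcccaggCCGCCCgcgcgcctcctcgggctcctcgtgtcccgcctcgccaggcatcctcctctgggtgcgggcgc
Epha1: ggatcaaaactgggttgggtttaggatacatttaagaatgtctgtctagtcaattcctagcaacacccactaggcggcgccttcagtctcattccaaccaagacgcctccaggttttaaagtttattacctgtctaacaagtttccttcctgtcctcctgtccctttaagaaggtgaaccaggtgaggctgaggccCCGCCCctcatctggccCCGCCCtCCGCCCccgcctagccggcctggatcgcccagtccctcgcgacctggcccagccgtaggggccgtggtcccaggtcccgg
Sema6b: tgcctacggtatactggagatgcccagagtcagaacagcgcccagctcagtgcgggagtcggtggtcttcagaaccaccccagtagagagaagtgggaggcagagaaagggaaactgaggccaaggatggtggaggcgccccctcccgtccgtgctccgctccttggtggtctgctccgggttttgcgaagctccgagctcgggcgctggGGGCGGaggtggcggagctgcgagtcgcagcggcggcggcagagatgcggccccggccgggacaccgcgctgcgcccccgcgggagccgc
The windows of Slit2, Slit3, Epha1 and Sema6b held 3, 6, 3 and 1 such hexamers, overlapping ones included, and their GC contents were 68.0%, 78.3%, 58.0% and 69.0%. A second RefSeq window of Sema6b lies 6491 bases from the annotated gene start and is not shown. Windows were given for 44 of the 50 genes (59 windows), of which 48 held a GC box (81.4%), against 35.7% of all 32851 windows in the reference. The median GC content of the members' windows was 66.0%, against 52.7% over all windows. These matches describe letters and not binding.

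In the vehicle cells, receptors were more abundant than ligands. To compare genes, CPM was divided by exon length, taken as the merged exons of all annotated transcripts of a gene. That length can exceed the length of the RNA made, and the level per kb is then understated. It was 25.4 kb for Slit2. The 19 receptors listed for ESCs summed to 121.9 ± 4.30 CPM per kb (SD, n = 3), against 69.5 ± 0.947 for the 27 ligands. In EpiLCs, 22 receptors summed to 105.3 ± 9.68 CPM per kb and 28 ligands to 65.0 ± 3.52 (SD, n = 3). Within families a few genes carried most of the level. Epha2, a receptor for ephrin-A ligands, was the highest EphA gene in both cell types, at 22.6 ± 1.35 CPM per kb in ESCs and 22.5 ± 2.57 in EpiLCs (SD, n = 3). The plexin Plxnb2, a receptor of class 4 semaphorins, stood at 21.7 ± 0.826 and 13.7 ± 1.31 CPM per kb, and the ephrin-B receptor Ephb4 at 19.5 ± 0.187 and 12.04 ± 1.44. Of these 3 leading receptors in vehicle ESCs, Epha2 and Plxnb2 lay within each other's spread.

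The leading ligand of vehicle ESCs was Sema4b, at 20.0 ± 0.664 CPM per kb. In vehicle EpiLCs it was Sema4d, a Plxnb1 ligand, at 8.67 ± 0.909 CPM per kb. Efna4 led the ephrin-A ligands in both cell types (7.88 ± 0.224 and 5.38 ± 1.21 CPM per kb). Of its exon bases, 10.5% are shared with other annotated genes, and the effect of this on its count was not tested. Among ephrin-B ligands, Efnb1 was highest in ESCs (2.86 ± 0.152 CPM per kb) and Efnb2 in EpiLCs (5.44 ± 0.660). The remaining leaders in ESCs and EpiLCs, in CPM per kb, were Sema3b (1.56 ± 0.160) and Sema3f (1.88 ± 0.132) for class 3, Sema5b for class 5 (1.38 ± 0.0886 and 1.79 ± 0.320), and Sema6c (2.66 ± 0.0376) and Sema6a (5.26 ± 0.315) for class 6. The only class 7 semaphorin, Sema7a, stood at 2.21 ± 0.175 and 0.850 ± 0.102 CPM per kb. Neo1 led the RGM branch (18.5 ± 0.817 and 5.51 ± 0.541 CPM per kb), Slit2 the Slits in ESCs (2.40 ± 0.0247) and Slit3 in EpiLCs (0.492 ± 0.0792), and the single listed Robo and neuropilin genes, Robo1 and Nrp2, stood at 1.58 ± 0.145 and 2.16 ± 0.343 CPM per kb in ESCs.

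**Figure D1:**
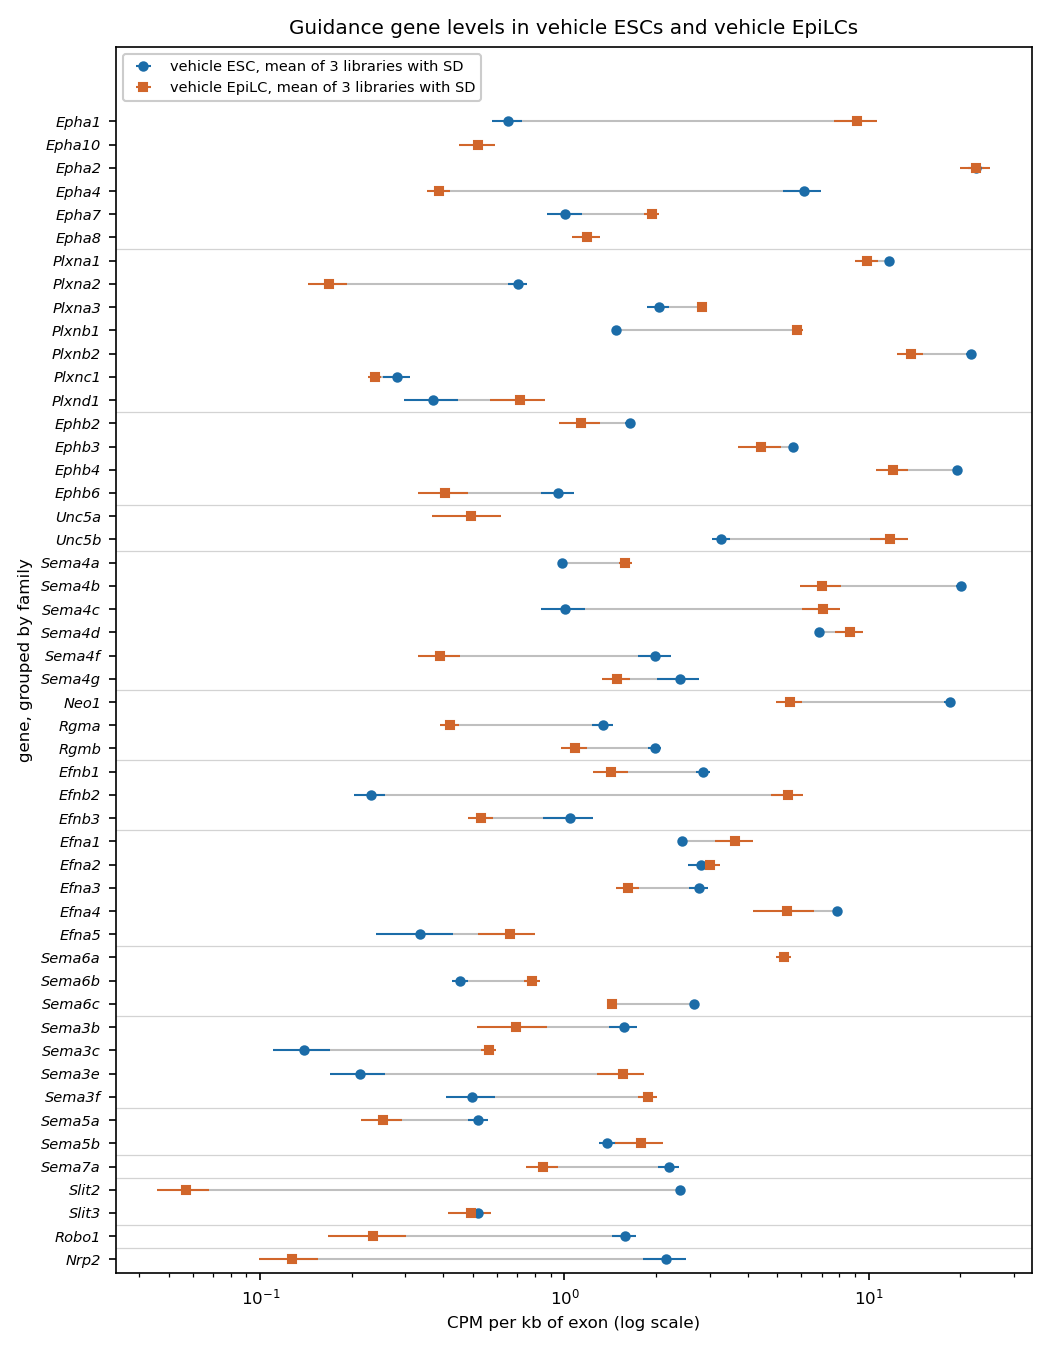
Level of each guidance gene in vehicle ESCs (circles) and vehicle EpiLCs (squares), in CPM per kb of exon on a log scale, as the mean of 3 libraries with its SD; families are separated by lines and the cell types joined by a grey bar. Slit2, Nrp2 and Epha4 lie far to the left in EpiLCs, and Efnb2 and Epha1 far to the right.

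The 2 tables were batch-adjusted separately by the authors, so levels in ESCs and EpiLCs are set side by side without a test. Of the 46 genes in both tables, 14 were over 2-fold lower in vehicle EpiLCs with no overlap between libraries, which 10.6% of all 12410 shared genes were, and 8 were over 2-fold higher on the same terms, which 11.1% of all genes were. The members' median log2(EpiLC/ESC) was -0.44, beside 0.00 over all genes (-0.000137). In bulk RNA, fewer expressing cells and less RNA per cell cannot be told apart.

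The Slit, Robo and neuropilin genes were prominent among the lower ones. Slit2, a secreted repellent, measured 61.5, 61.3 and 60.3 CPM in the 3 vehicle ESC libraries and 1.17, 1.45 and 1.73 CPM in the 3 vehicle EpiLC libraries. That is 42.2-fold lower in EpiLCs, where the 3 libraries held 39.7 counts on average. Robo1, its receptor and the only Robo gene listed, was at 24.1, 28.7 and 25.2 CPM in ESCs and at 3.37, 5.15 and 3.10 CPM in EpiLCs, 6.72-fold lower. Both were thus low together in EpiLCs, whereas Slit3 stood at 3.15 ± 0.131 and 2.99 ± 0.481 CPM (SD, n = 3) and the groups overlapped. The semaphorin co-receptor Nrp2 gave 23.8, 30.2 and 22.6 CPM in ESCs and 1.34, 1.89 and 1.28 CPM in EpiLCs, 17.0-fold lower.

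The receptor Epha4, which accepts both ephrin classes, was 15.8-fold lower in EpiLCs (49.2 ± 7.07 CPM in ESCs, 3.11 ± 0.269 in EpiLCs), and the transmembrane semaphorin Sema4f was 5.08-fold lower (10.5 ± 1.32 and 2.07 ± 0.324 CPM). The RGM branch was lower as a whole in level. Neo1 was 3.35-fold lower, from 160.9 ± 7.12 to 48.0 ± 4.72 CPM, and its ligand Rgma was 3.18-fold lower, from 7.40 ± 0.584 to 2.33 ± 0.172 CPM. Rgmb went from 15.2 ± 0.784 to 8.29 ± 0.797 CPM, which is under the 2-fold mark.

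Higher levels in EpiLCs were led by Efnb2, a transmembrane ligand of EphB receptors and Epha4. Its vehicle libraries measured 1.37, 1.68 and 1.70 CPM in ESCs and 39.2, 40.5 and 32.1 CPM in EpiLCs, a 23.6-fold ratio. The receptor Epha1 followed with 2.31, 2.88 and 2.47 CPM in ESCs and 29.9, 41.5 and 36.7 CPM in EpiLCs, 14.1-fold higher. No ESC library came near the EpiLC range for either gene. Sema3e, the ligand of Plxnd1, was 7.27-fold higher (1.98 ± 0.410 and 14.4 ± 2.53 CPM), Sema4c 7.05-fold (4.60 ± 0.748 and 32.4 ± 4.67 CPM) and Sema3c 4.04-fold (0.996 ± 0.211 and 4.03 ± 0.228 CPM).

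Receptors that were also over 2-fold higher in EpiLCs were Plxnb1 (3.95-fold) and the netrin receptor Unc5b (3.60-fold), and with Sema3f (3.76-fold) they complete the 8 genes. Unc5b was the highest Unc5 gene in both cell types, at 3.28 ± 0.220 and 11.8 ± 1.65 CPM per kb. Sema6a, a plexin-A ligand without an ESC row, stood at 46.4, 48.8 and 43.3 CPM in vehicle EpiLCs. Netrin-1 (Ntn1), which is no member but the ligand of Unc5b, went the other way, from 60.6 ± 7.60 CPM in ESCs to 1.26 ± 0.444 CPM in EpiLCs (SD, n = 3).

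Exposure of ESCs to Δ9-THC was accompanied by lower levels of several receptors and ligands. In edgeR's quasi-likelihood test 7 genes fell and none rose, at a Benjamini-Hochberg p of at most 0.05 adjusted across the 13104 genes. That is 7 of 46 members lower (15.2%), beside 3.55% of all genes lower, and 0 higher, beside 3.37% of all genes higher. Of the members, 36 had a ratio below 1 and 10 above it, and their median log2(fold-change) was -0.17, beside 0.00 (0.00406) over all genes. At an unadjusted p under 0.05, the members numbered 16 (34.8%), beside 28.7% of all genes. Groups without overlap between vehicle and Δ9-THC libraries were found for 14 members that were lower (15.9% of all genes) and for 1 that was higher, Sema6b (16.7% of all genes). The 14 comprised the 7 genes that fell and Efna1, Efna3, Efna4, Efnb1, Ephb4, Plxna3 and Sema3b.

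The 7 genes span 4 receptors and 3 ligands. Epha1, an ephrin-A receptor, measured 2.31, 2.88 and 2.47 CPM in vehicle ESCs and 1.80, 1.34 and 1.64 CPM with Δ9-THC. No Δ9-THC library reached the vehicle range, and the log2(fold-change) was -0.69 ± 0.15 (SE; adjusted p = 0.0456). About 6.01% of the exon bases of Epha1 (chr6:42358487-42373268, GRCm38) are shared with other annotated genes. Slit3 (chr11:35121224-35708507) gave 3.29, 3.03 and 3.14 CPM in vehicle and 1.89, 2.14 and 2.10 CPM with Δ9-THC. Again the groups were apart, and the log2(fold-change) was -0.62 ± 0.09 (adjusted p = 0.0297). These were the 2 largest decreases, and both genes are low, with 75.0 and 93.3 counts on average in the vehicle libraries.

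The glycosylphosphatidylinositol-anchored Sema7a (chr9:57940112-57962865) was the third, at 6.61, 7.62 and 7.59 CPM in vehicle and 5.95, 5.09 and 5.12 CPM with Δ9-THC. The change on the log2 scale was -0.43 ± 0.10 (adjusted p = 0.0479). Sema4a (chr3:88435959-88461182), a ligand of plexins, measured 5.30, 5.40 and 5.19 CPM in vehicle and 4.06, 4.02 and 4.19 CPM with Δ9-THC (log2(fold-change) = -0.37 ± 0.06, adjusted p = 0.0321). Both genes kept their vehicle and Δ9-THC libraries apart, with the narrower spread in Sema4a.

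Among the plexins 3 of 7 fell, and the other 4 were not called, with log2(fold-change) values from -0.31 (Plxna3) to -0.05 (Plxnd1, which was at 0.12 with offsets for GC content and length). Plxna1 (chr6:89316314-89362620), the signalling receptor of class 3 and class 6 semaphorins, measured 107.2, 108.6 and 101.6 CPM in vehicle and 84.2, 83.3 and 89.5 CPM with Δ9-THC. It had the smallest adjusted p of the members (log2(fold-change) = -0.30 ± 0.04, adjusted p = 0.0283), and 10.7% of its exon bases are shared with other annotated genes. Plxnb1 (chr9:109095389-109119917), the Sema4d receptor, stood at 14.3, 14.1 and 14.1 CPM in vehicle and 11.9, 12.05 and 12.2 CPM with Δ9-THC. The log2(fold-change) was -0.24 ± 0.04 (adjusted p = 0.0352). Plxnb2 (chr15:89155549-89180788) went from 171.5, 171.3 and 160.4 CPM to 142.9, 143.5 and 153.6 CPM, a log2(fold-change) of -0.19 ± 0.04 (adjusted p = 0.0479). In percent of the vehicle level these 3 plexins were at 81.0%, 85.0% and 87.4%, so the falls were small although the libraries did not overlap.

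The other families gave no call in ESCs. Values were nearest to one for Efna3, an ephrin-A ligand, at a log2(fold-change) of -0.38 ± 0.09 (adjusted p = 0.0524), with 14.1% of its exon bases shared with other genes. The 3 ephrin-B ligands lay between -0.30 and -0.26 (smallest adjusted p = 0.0640). The 4 EphB receptors lay between -0.18 and 0.05, Robo1 was at -0.08 and Nrp2 at 0.01. The 3 largest increases were Sema6b (0.25 ± 0.14, adjusted p = 0.279), Sema3e (0.18 ± 0.21, adjusted p = 0.613) and Sema3f (0.11 ± 0.19, adjusted p = 0.749). Their 95% intervals, -0.08 to 0.58, -0.33 to 0.69 and -0.35 to 0.57, include 0.

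Rgma and Sema6b differed in sign in ESCs. Sema6b (chr17:56123085-56140343), a transmembrane semaphorin that binds plexin-A receptors, measured 1.67, 1.90 and 1.84 CPM in vehicle and 2.26, 2.04 and 2.14 CPM with Δ9-THC. Rgma (chr7:73375509-73419899) measured 6.73, 7.66 and 7.81 CPM in vehicle and 6.74, 5.86 and 5.74 CPM with Δ9-THC. The libraries of Sema6b were apart and those of Rgma just touched. The log2(fold-change) of Rgma was -0.27 ± 0.09 (adjusted p = 0.116), and neither gene passed the test in ESCs. For Sema6b the spread between libraries was below that of counting itself, and its p was held at the Poisson value, as it was for 6 of 46 members and 15.6% of all genes in ESCs.

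**Figure D2:**
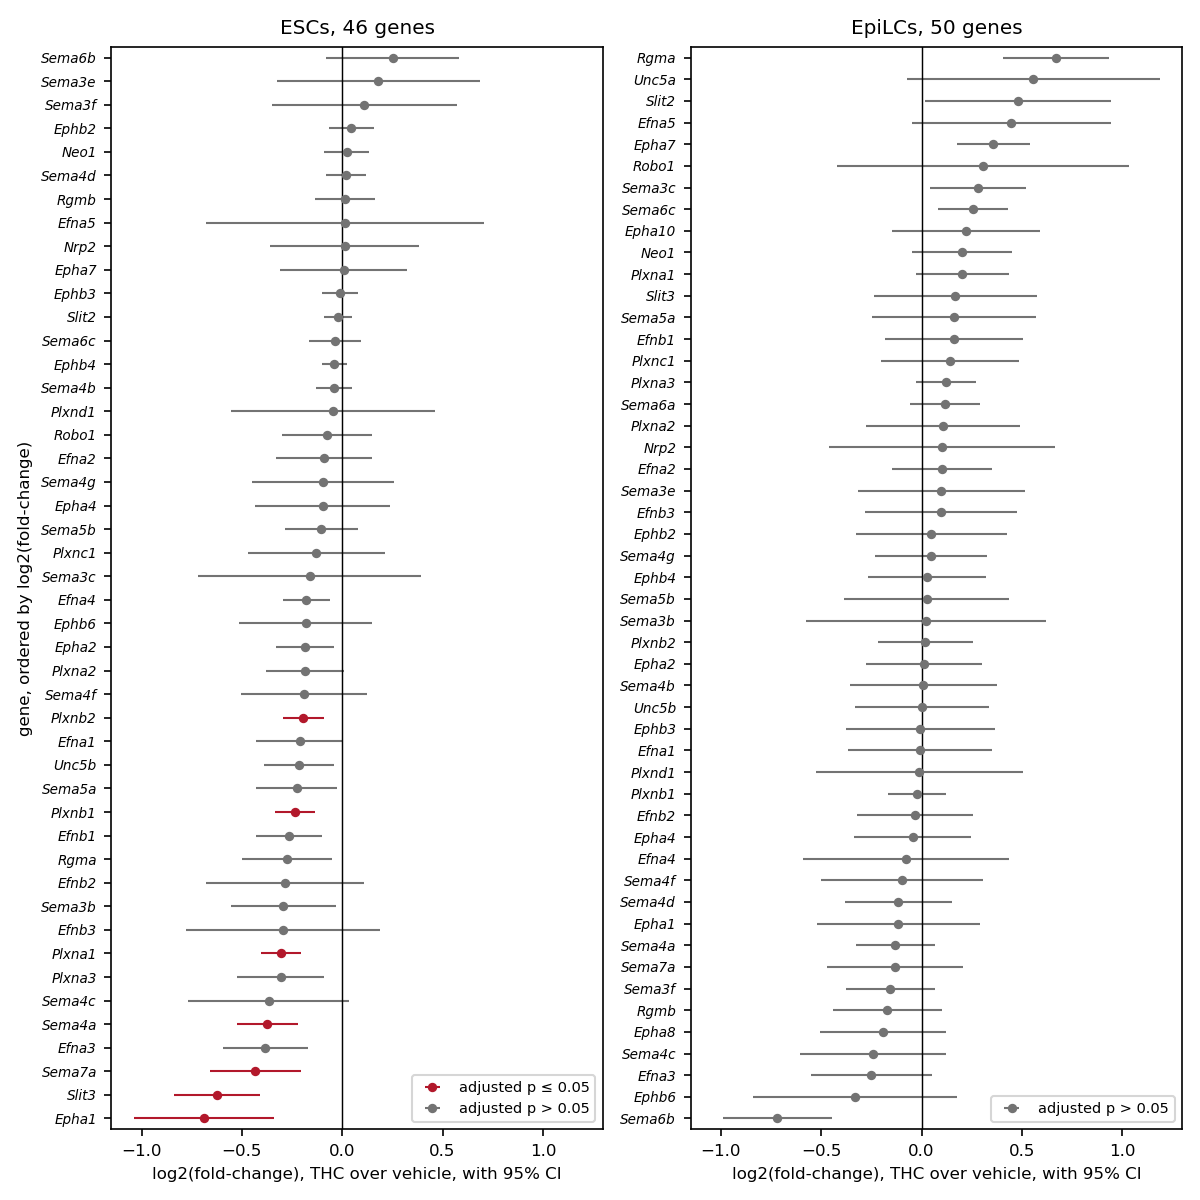
Log2(fold-change) of Δ9-THC over vehicle with its 95% confidence interval for 46 genes in ESCs (left) and 50 in EpiLCs (right), ordered by size; red marks an adjusted p of at most 0.05 in edgeR's test. The 7 red genes are all in ESCs and all below 0, and Sema6b is at the top of the ESC panel and at the bottom of the EpiLC panel.

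The calls in ESCs depended on the model and on the number of libraries. No member passed with the replicate number as a block, with offsets for GC content and length, or with both. None passed in a fit of all 12 libraries, or when any 1 of the 6 libraries was left out. DESeq2 called 2 members, Plxna1 and Plxnb2 (4.35%, beside 5.79% of all genes). It gave no adjusted p for Slit3, Epha1, Sema6b and several other members with few counts. Genes without an adjusted p count as not called in these percentages. The 6 fits without 1 library gave Slit3 log2(fold-change) values of -0.66 to -0.57 and Epha1 values of -0.79 to -0.57. With the replicate block Slit3 was at -0.63, Epha1 at -0.69 and Plxna1 at -0.30, so the values stayed while the calls were lost. The members are GC-rich, with a median GC content of 56.7% in their longest transcript, beside 49.7% over all genes of the ESC table. Over 13083 genes with a known GC content, log2(fold-change) in ESCs went down as GC content went up (Spearman's rho = -0.54 across genes that share the same 6 libraries, a description), and rho was -0.17 over the 46 members. With the offsets the members' median moved from -0.17 to -0.09 and those below 0 from 36 to 30. Slit3 was then at -0.52 (adjusted p = 0.0884), Epha1 at -0.62 (0.127), Plxna1 at -0.19 (0.103) and Sema6b at 0.44 (0.128). The part of GC content in the ESC differences was not tested beyond these values.

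**Figure D3:**
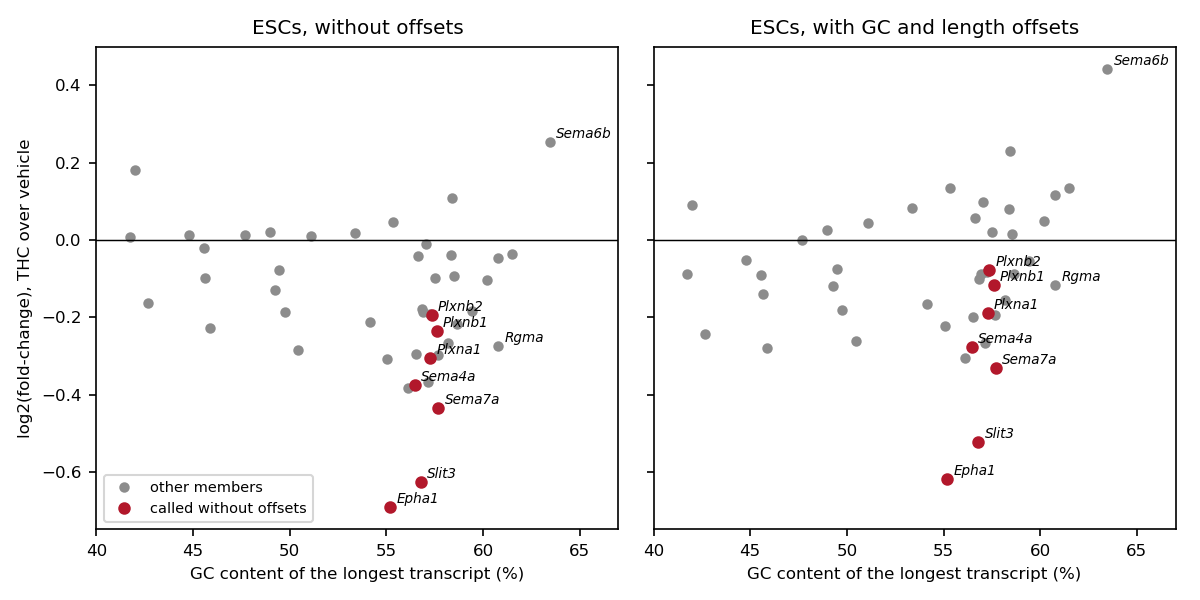
Log2(fold-change) of Δ9-THC over vehicle in ESCs for the 46 genes against the GC content of their longest transcript (%), without offsets (left) and with offsets for GC content and length (right); red marks the 7 genes called without offsets. Slit3 and Epha1 keep values of -0.52 and -0.62 with the offsets, while Plxnb2 comes to -0.08.

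In EpiLCs no guidance gene passed the test, and no gene of the table did. EdgeR called 0 of 50 members (0.0% of all 13717 genes), 6 members had an unadjusted p under 0.05 (beside 15.1% of all genes), and DESeq2 called 0 members and 0.634% of all genes. The ratios were above 1 for 31 genes and below 1 for 19, with a median log2(fold-change) of 0.03, beside 0.00 (0.00305) over all genes. That median ranged from -0.01 to 0.11 when 1 library was left out. Libraries did not overlap for 7 members that were higher (11.2% of all genes) and 1 that was lower (10.6% of all genes). The higher ones were Rgma, Epha7, Neo1, Plxna3, Plxnc1, Sema3c and Sema6c.

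That 1 lower gene was Sema6b. Its vehicle EpiLC libraries measured 2.89, 3.21 and 3.23 CPM and its Δ9-THC libraries 2.03, 1.81 and 1.82 CPM. All Δ9-THC libraries were lower than all vehicle libraries, by a log2(fold-change) of -0.72 ± 0.11 (95% interval -0.99 to -0.45, edgeR adjusted p = 0.144). Rgma showed the largest increase. It stood at 2.20, 2.26 and 2.52 CPM in vehicle and 3.82, 3.82 and 3.44 CPM with Δ9-THC (log2(fold-change) = 0.67 ± 0.11, 95% interval 0.40 to 0.93, edgeR adjusted p = 0.144). These changes, to 60.8% and 159% of the vehicle level, rest on 86.3 and 64.3 counts on average in the vehicle libraries. Both 95% intervals treat the libraries as independent and can be too narrow. With the replicate number as a block, the unadjusted edgeR p of Rgma went from 0.000643 to 0.0285. When the 12 libraries were fitted together, Sema6b (edgeR adjusted p = 0.0135) and Rgma (0.0205) were the 2 of 46 members that passed (4.35%). In that fit 3.31% of all genes passed. It has 1 estimate of spread per gene for both cell types, and within-group library pairs differed less in ESCs. It called 411 genes in EpiLCs, beside 0 in the EpiLC fit, and 31 in ESCs, beside 906 in the ESC fit. The spread in EpiLCs can be understated there, and the p-values too small.

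The next increases were Unc5a, an Unc5 receptor listed in EpiLCs alone, and Slit2. Unc5a measured 1.48, 2.51 and 2.17 CPM in vehicle and 3.90, 2.28 and 2.90 CPM with Δ9-THC, with overlapping groups and a log2(fold-change) of 0.56 ± 0.26 (adjusted p = 0.378). Slit2 measured 1.17, 1.45 and 1.73 CPM in vehicle and 2.34, 2.01 and 1.69 CPM with Δ9-THC. Its groups overlapped by 1 library, at a log2(fold-change) of 0.48 ± 0.19 (adjusted p = 0.318). After Sema6b, the largest decreases were Ephb6, an Eph receptor without kinase activity (-0.33 ± 0.21, adjusted p = 0.507), and Efna3 (-0.25 ± 0.13, adjusted p = 0.405). Of the 7 genes that fell in ESCs, none passed in EpiLCs. Their log2(fold-change) there was -0.12 for Epha1, 0.17 for Slit3, -0.13 for Sema7a, -0.13 for Sema4a, 0.20 for Plxna1, -0.02 for Plxnb1 and 0.02 for Plxnb2.

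**Figure D4:**
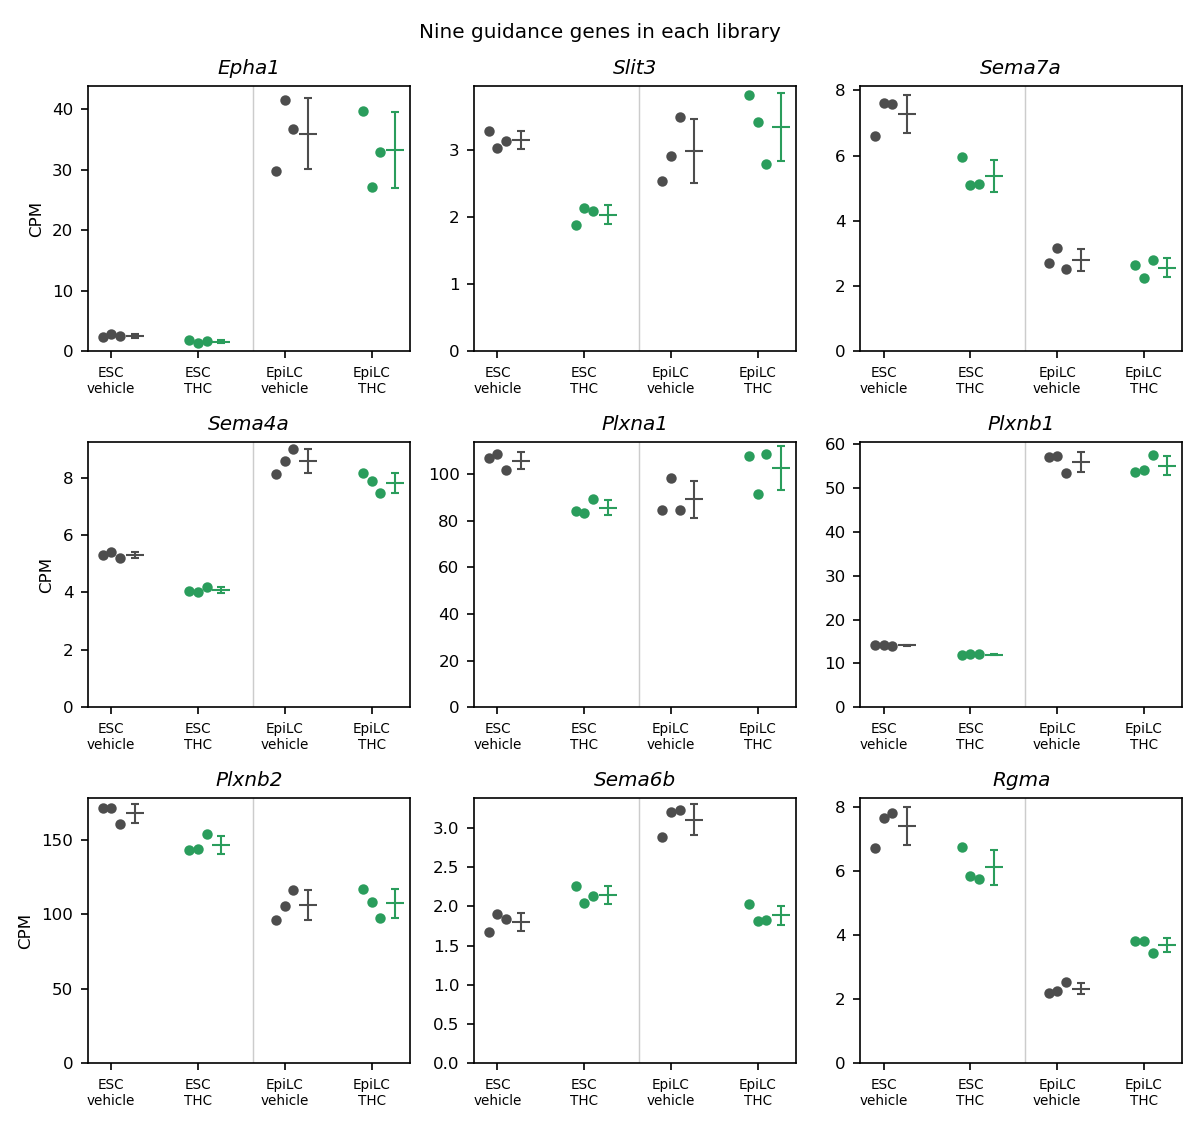
Level in CPM (axis from 0) of the 7 genes that fell in ESCs and of Sema6b and Rgma in each of the 12 libraries; points are libraries, bars the mean and SD of 3, grey vehicle and green Δ9-THC. Slit3 with Δ9-THC lies at 1.89 to 2.14 CPM in ESCs, below its vehicle range of 3.03 to 3.29 CPM, while Sema6b lies above its vehicle range in ESCs and below it in EpiLCs.

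Whether the response to Δ9-THC differed between EpiLCs and ESCs was tested for 46 members in a model of all 12 libraries, as the difference of 2 differences that were each taken within 1 table. No member passed (0 of 46, beside 0.0322% of 12410 genes, which is 4 genes), and 11 had an unadjusted p under 0.05 (23.9%, beside 13.7% of all genes). The difference, EpiLC minus ESC in log2(fold-change), was above 0 for 40 of 46 members and for 52.9% of all genes, with a median of 0.22 beside 0.01 over all genes. Direction by direction, 22 members were lower in ESCs and higher in EpiLCs (47.8%, beside 20.2% of all genes), 14 were lower in both, 6 higher in both and 4 higher in ESCs and lower in EpiLCs. With GC and length offsets in the model, 33 of 46 differences were above 0 and the median was 0.14. Over all genes, 52.8% of the differences were then below 0 and the median was -0.01. An unadjusted edgeR p under 0.05 was then found for 6 of 46 members, beside 1613 of 12410 genes.

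The 2 largest differences were of opposite sign. Rgma differed by 0.96 ± 0.15 (95% interval 0.62 to 1.30, edgeR adjusted p = 0.0526), and Sema6b by -0.95 ± 0.16 (95% interval -1.31 to -0.60, edgeR adjusted p = 0.0526). Both lay just outside the threshold in this fit, which has 1 estimate of spread per gene for both cell types. With the replicate number as a block, their edgeR adjusted p was 0.999 each (unadjusted p 0.00491 and 0.0141). The differences stayed at 0.96 and -0.95. Without the block, Plxna1 followed with 0.52 ± 0.11 (adjusted p = 0.0803) and Slit3 with 0.81 ± 0.21 (adjusted p = 0.128). DESeq2 called Plxna1 (adjusted p = 0.00495) and Rgma (0.00554), which is 4.35% of the members beside 1.07% of all genes, and gave Sema6b an adjusted p of 0.0649.

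Partners and effectors outside the membership were counted on fixed lists. Of 30 netrins, co-ligands and co-receptors on a fixed list, 23 had an ESC row. Only the heparan sulphate proteoglycan Sdc1 fell there (log2(fold-change) = -0.22 ± 0.04, adjusted p = 0.0420), none rose, and the list's median was -0.07. Of 62 intracellular effectors, such as actin-binding proteins, 59 had an ESC row, 4 fell and 1 rose. For both lists the background is the same, 3.55% of all genes lower and 3.37% higher. Those lower were Vasp (-0.29 ± 0.05, adjusted p = 0.0338) and Evl (-0.19 ± 0.04, 0.0495), which promote actin filament growth, Farp1 (-0.19 ± 0.04, 0.0409), and Gipc1 (-0.15 ± 0.03, 0.0395), which binds class 4 semaphorins and neuropilins. The kinase Rock1 was higher (0.15 ± 0.03, adjusted p = 0.0473). In EpiLCs no gene of either list was called, among 21 and 60 with a row.

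Markers of other cell types were low or without calls. The neural list, of the cells in which these guidance genes are best known, had 7 of 12 genes with an ESC row and 0 called (Pax6, Neurog2, Zic1, Dcx and Neurod1 had no row), and it summed to 334.2 to 347.7 CPM in vehicle ESCs and to 336.3 to 347.1 CPM with Δ9-THC. In EpiLCs 9 of 12 had a row, with sums of 232.4 to 248.1 and 223.8 to 237.9 CPM. Stmn2 was the largest part of the ESC sum, at 192.2 ± 6.86 CPM in vehicle ESCs and 54.6 ± 7.17 in vehicle EpiLCs. Elavl3 went the other way, from 1.44 ± 0.154 to 30.7 ± 7.81 CPM, so the sums do not describe each gene. In ESCs, with vehicle and Δ9-THC sums in that order, streak and mesoderm markers (3 of 7 listed) gave 14.4 to 19.8 and 17.1 to 23.3 CPM, endoderm (1 of 7) 2.53 to 3.39 and 2.38 to 3.27 CPM, and trophectoderm (2 of 5) 9.08 to 10.4 and 9.64 to 11.1 CPM. Two-cell-like markers (2 of 5 listed, near-identical Zscan4 copies between which reads are uncertain) gave 2.07 to 2.74 and 2.74 to 3.48 CPM. These ranges overlapped between the groups except for the two-cell-like sum, whose part in the ESC results was not tested. In EpiLCs, the sums of endoderm markers (2 of 7 listed, with no row for Gata6, Sox17 and Sox7) were 7.39 to 8.48 CPM in vehicle and 8.57 to 9.88 CPM with Δ9-THC, and their part was not tested either, while the ranges of the streak, trophectoderm and two-cell-like lists overlapped. Within the primed epiblast list 1 of 7 genes was called in ESCs, Pou3f1, lower by a log2(fold-change) of -0.96 ± 0.10 (adjusted p = 0.0265).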

How the data were processed

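Count tables of 6 ESC and 6 EpiLC libraries were used, and the PGCLC samples were not analysed here. Per the labels and methods, the authors aligned poly(A) reads with STAR, counted unique exonic reads with HTSeq without strand, removed genes with low counts and deposited whole-number counts adjusted with ComBat-seq, separately per table, for batches not named. The spread of adjusted counts can be narrower than that of reads. The submitters' processing notes name bcl2fastq 2.19.1.403 and both mm10 and GRCm39. Genes were matched by identifier to GENCODE M21 (GRCm38), whose positions need not be of the authors' build, and 21 rows of each table had no symbol there. Reads of overlapping genes on opposite strands cannot be told apart.

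CPM used TMM factors within each table. The main test was edgeR 4.0.16 (quasi-likelihood, two-sided, R 4.3.3), where counts summed to over 10, with an adjusted p of at most 0.05. Standard errors and 95% intervals follow from the p of that test, which is held at or above the Poisson p. Alternatives were RLE, other filters, DESeq2 1.42.0, a replicate block, offsets for GC content and length (splines with 5 degrees of freedom), a fit of all 12 libraries, and each library left out. The tests were also tried on simulated counts, drawn independently for each library at 1 fixed spread. The adjusted libraries were not independent, so that trial does not give the error rates here. Groups of 3 against 3 give a smallest exact permutation p of 0.1, so none is given for single genes.

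The families were taken whole by symbol, but they and the lists were chosen with earlier results of these data known. Named with values were Sema6b, Rgma, every member past a test, the 3 largest increases and decreases with Δ9-THC in each cell type, the highest member of each family per exon length, and the 5 highest and 5 lowest EpiLC to ESC ratios. The other genes named, such as partners and genes whose groups did not overlap, were picked with their values in view. The authors' deposited fold-change tables were not used.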

Additional observations from a re-analysis of the deposited data

Results flagged for a closer look

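Plxna3 and Sema6b had vehicle and Δ9-THC libraries without overlap in both cell types, in opposite directions, which 2 of 46 members (4.35%) and 1.95% of the 12410 shared genes did. Plxna3, a receptor of class 3 semaphorins with neuropilins, measured 17.1, 16.6 and 14.5 CPM in vehicle ESCs and 12.1, 12.5 and 14.4 CPM with Δ9-THC. In EpiLCs it measured 23.1, 22.1 and 21.8 CPM in vehicle and 23.2, 24.8 and 24.8 CPM with Δ9-THC, so that the nearest libraries were close in both cell types. The difference between its 2 responses was 0.443 on the log2 scale (EpiLC minus ESC, edgeR adjusted p = 0.135), which did not pass. For Sema6b that difference was -0.955 (edgeR adjusted p = 0.0526), which did not pass either.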

How the results depend on the processing

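In ESCs, RLE left 7 members called. So did no filter and at least 10 counts in every library, which tested 13104 and 13094 genes. The main fit tested 13104, so these filters could hardly change a call. DESeq2 called 2, and the replicate block, GC and length offsets, the 2 together, and the 12-library fit called 0 each. Each fit without 1 library called 0 members (lowest 0, highest 0), with fewer libraries by construction. Over all genes, 906 were called, beside 5 with the block, 2 with offsets, 3 with both, 31 in the 12-library fit and 0 to 1 without 1 library. In EpiLCs the 12-library fit called 2 members (411 genes), DESeq2 0 (87 genes) and every other alternative 0. For the difference between cell types, DESeq2 called 2 members (133 genes, beside 4) and every other alternative 0. Outside ESCs the main fits called no member, so the replicate block had no call to remove there. It moved the edgeR adjusted p of Rgma in EpiLCs from 0.144 to 0.999. For the difference between cell types it moved that of Rgma and Sema6b from 0.0526 to 0.999. The cause of the block's effect and of the offsets' effect was not tested. No log2(fold-change) of a member called or among the largest changes in its cell type changed sign, while others near 0 did when 1 library was left out, such as Epha1 (-0.28 to 0.000688) and Plxnb2 (-0.06 to 0.09) in EpiLCs and Robo1 (-0.13 to 0.00374) and Nrp2 (-0.08 to 0.15) in ESCs. The counts of members over 2-fold higher or lower in vehicle EpiLCs stayed within 1.5 times under all alternatives. Sema6b's log2(EpiLC/ESC), 0.79 in vehicle cells, was -0.19 in Δ9-THC cells, and Rgma's went from -1.67 to -0.73, under the 2-fold mark. Counting depth limits genes near 2 CPM, such as Sema6b, for which DESeq2 gave no adjusted p in either cell type.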
